A study of Homo sapiens with 6 samples.

Results

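EHF and 9 genes that lie around it on the short arm of chromosome 11, in band 11p13, were followed in 2 populations of human colorectal cancer cells. In RefSeq order the genes are CD59, ABTB2, CAT, ELF5, EHF, APIP, PDHX, CD44, SLC1A2 and TRIM44. The members were all probe sets whose only gene symbol in the array's annotation is one of these names, which gave 43 probe sets for 10 genes out of 54613 probe sets. EHF was chosen for its lower signal in M5, known from earlier results of these data. Its values are therefore given as a description with no test. The other members were chosen for their place beside EHF, and the question was whether their signals fell with it.

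SW480 is an established human colorectal cancer line, and M5 is a population selected from SW480 in an animal for spread to the liver. Both were grown in the same serum-containing medium, the labels name no drug and no engineered change, and each gave 3 arrays labelled as biological replicates. The labels do not say whether M5 is 1 clone or what animal was used. Total RNA was read on a short-probe array, which reports 1 signal per probe set. Signals are given after quantile normalisation and in replicate order throughout, and levels are compared between arrays, never between genes.

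EHF encodes an ETS factor, one of the DNA-binding proteins that recognise a GGAA core, and it belongs with ELF3 and ELF5 to the branch of that family found mainly in epithelia. The genes beside it have unrelated tasks. CD44 is a membrane receptor for hyaluronan and a widely used marker of colorectal cancer stem-like cells, CD59 shields cells from complement, catalase (CAT) breaks down hydrogen peroxide, and PDHX holds part of the pyruvate dehydrogenase complex together. Genes that lie side by side can change together when a stretch of chromosome is lost or silenced, and singly when only 1 of them is switched off.

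The stretches before the transcription starts of EHF held fewer CG sites than those of most of its neighbours. RefSeq (GRCh38.p14) gave 14 windows of 250 bases upstream of a start for 9 of the 10 genes. The sequences below were chosen to set EHF and the related ELF5 against CAT and CD44. They read 5′ to 3′ on the strand of the gene, and capitals mark each CG dinucleotide, the site of DNA methylation.
EHF, start 1 (chr11:34624007-34624256, plus strand): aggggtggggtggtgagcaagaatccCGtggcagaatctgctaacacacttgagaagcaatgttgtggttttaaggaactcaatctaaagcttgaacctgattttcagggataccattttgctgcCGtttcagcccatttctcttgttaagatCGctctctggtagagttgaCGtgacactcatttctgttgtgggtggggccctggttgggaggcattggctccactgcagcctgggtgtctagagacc
EHF, start 2 (chr11:34632316-34632565, plus strand): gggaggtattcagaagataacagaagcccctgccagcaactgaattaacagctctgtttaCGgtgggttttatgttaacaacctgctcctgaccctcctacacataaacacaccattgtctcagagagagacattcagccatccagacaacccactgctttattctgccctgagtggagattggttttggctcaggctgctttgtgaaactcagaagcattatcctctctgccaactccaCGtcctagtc
ELF5 (chr11:34511725-34511974, minus strand): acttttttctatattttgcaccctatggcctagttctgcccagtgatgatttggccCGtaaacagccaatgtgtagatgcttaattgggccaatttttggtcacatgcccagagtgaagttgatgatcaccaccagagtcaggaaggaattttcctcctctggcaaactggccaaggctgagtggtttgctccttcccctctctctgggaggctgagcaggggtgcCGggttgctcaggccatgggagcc
CAT (chr11:34438684-34438933, plus strand): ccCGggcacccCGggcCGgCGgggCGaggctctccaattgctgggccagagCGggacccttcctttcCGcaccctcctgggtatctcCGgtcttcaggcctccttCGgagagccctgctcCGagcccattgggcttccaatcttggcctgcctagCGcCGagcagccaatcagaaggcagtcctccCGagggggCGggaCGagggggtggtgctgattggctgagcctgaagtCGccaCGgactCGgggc
CD44 (chr11:35138921-35139170, plus strand): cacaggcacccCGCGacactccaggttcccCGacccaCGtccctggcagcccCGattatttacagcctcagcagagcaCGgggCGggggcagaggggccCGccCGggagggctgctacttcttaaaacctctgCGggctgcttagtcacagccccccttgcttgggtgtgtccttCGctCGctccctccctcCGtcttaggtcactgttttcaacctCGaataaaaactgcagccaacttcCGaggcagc

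The EHF windows held 4 and 2 CG sites and the ELF5 window 2, whereas the CAT window held 18 and the CD44 window 15. Over 35116 such windows of all genes the median was 11. Windows with no more CG sites than the first EHF window made up 34.3% of them, so a CG-poor start is common. The windows of ABTB2, APIP, PDHX and TRIM44 held between 9 and 28 CG sites. CD59 had both kinds, with 12 and 18 at its outer starts and 1 at each of its inner starts. APIP and PDHX are transcribed away from each other, and a window of one overlapped a window of the other by 238 bases. The sequence CCGGAA, a longer form of the ETS core GGAA, was searched on both strands. It was in 0 of the 14 windows and in 14.5% of all windows. The shorter core GGAA was not counted. Read on either strand, it does occur in the printed windows of EHF (start 1), ELF5, CAT and CD44. Neither DNA methylation nor factor binding was measured in these cells.

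EHF signal was high on every SW480 array and low on every M5 array, in all 6 of its probe sets. The brightest, 225645_at, read 506, 1110 and 1220 on the SW480 arrays and 18.7, 35.2 and 45.3 on the M5 arrays. As deposited, before any scaling, the same probe set read 176.7, 1023.4 and 1948.8 against 11.4, 40.6 and 53.1. Ranked within its own array, it stood at percentiles 96.1, 98.3 and 98.4 of all probe sets in SW480 and at 62.7, 72.2 and 75.5 in M5. The lowest SW480 array thus lay far above the highest M5 array before and after scaling.

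The SW480 mean of 225645_at was 947 ± 387 (SD, n = 3), and the M5 mean was 29.5 ± 15.2 (SD, n = 2). For each SD, replicates 2 and 3 of M5 entered as 1 sample, because they correlated at r = 0.994 over 5462 bright probe sets, against 0.894 to 0.958 for the other pairs of arrays. The limma fit keeps them apart, so its SEs, intervals and p-values are too small if they are 1 sample. The log2 difference, M5 minus SW480, was -4.75 with a standard error (SE) of 0.38, about 26.9-fold. That scale is log2(signal + 1.7), which understates folds of low signals. Fewer cells that express EHF and less EHF RNA per cell cannot be told apart in such bulk RNA.

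**Figure D1:**
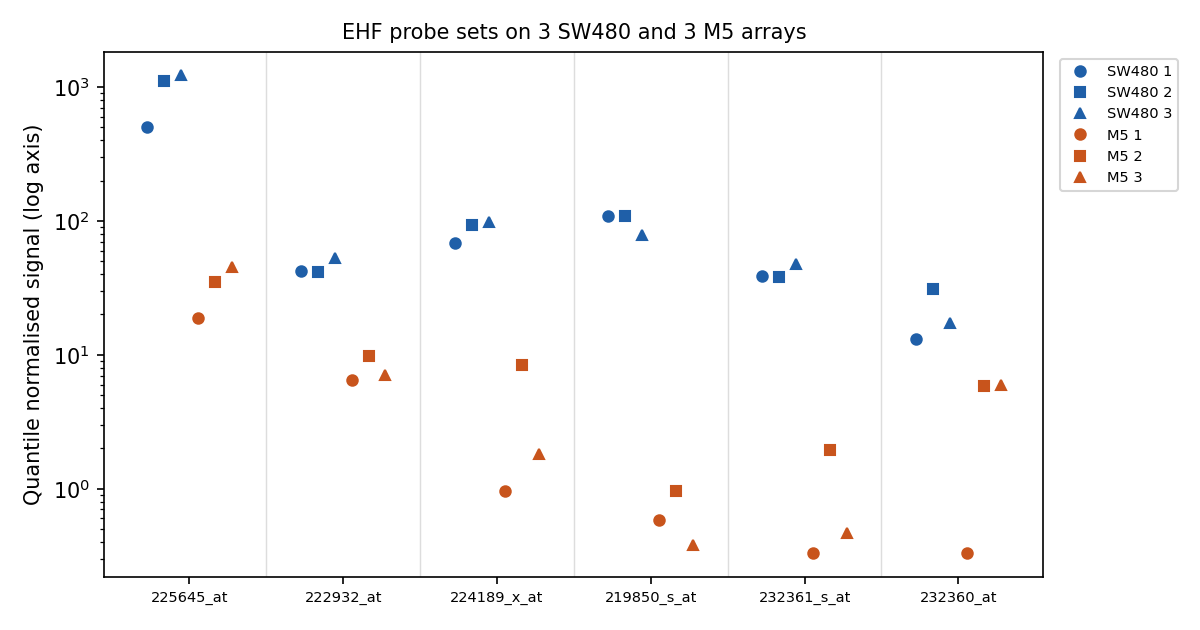
Signals of the 6 EHF probe sets (horizontal axis) after quantile normalisation, on a log axis, with 1 point for each of the 3 SW480 arrays (blue) and 3 M5 arrays (orange). In every probe set all SW480 points lie above all M5 points, as for 225645_at with 506 to 1220 against 18.7 to 45.3.

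In M5 several EHF probe sets lay at the bottom of the scale. Probe set 219850_s_at read 108, 109 and 78.6 on the SW480 arrays and 0.583, 0.967 and 0.383 on the M5 arrays, a log2 difference of -5.41 (SE 0.44). Those M5 signals are below the pseudocount of 1.7, so the size of this fold is set largely by that constant. The files used here hold no detection calls, so whether EHF was above background in M5 is unknown.

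A further pair of EHF probe sets behaved likewise. Probe set 224189_x_at went from 68.2, 93.2 and 98.9 to 0.967, 8.43 and 1.83. Probe set 232361_s_at went from 38.9, 37.9 and 47.8 to 0.333, 1.93 and 0.467. Their log2 differences were -4.26 (SE 0.52) and -4.09 (SE 0.54). An M5 array reached a signal of 8.43 in the first of these, and that was M5 replicate 2.

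The smallest differences came from the remaining 2 EHF probe sets. Probe set 222932_at read 42, 41.3 and 53.1 in SW480 and 6.47, 9.85 and 7.02 in M5, a log2 difference of -2.32 (SE 0.39). Probe set 232360_at read 13.2, 31 and 17.2 in SW480 and 0.333, 5.83 and 6 in M5, one of -2.10 (SE 0.67). The 6 probe sets read the same gene, so they are not independent replicates of its difference. A name ending in _x_at marks a probe set that can also bind similar sequences of other genes.

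The difference in EHF was also taken on subsets of the arrays, where its direction follows from the lack of overlap. SW480 replicate 1 and M5 replicate 1 were the dimmest arrays, here called the dimmer pair, and 225645_at differed by -4.63 between them on the log2 scale. Among the 3 arrays with a high 18S ribosomal RNA control signal it differed by -5.20, and among the 3 with a low one by -4.88. Probe set 232360_at differed by -2.88, -3.44 and -1.31 on the same subsets. Over 18 alternative ways of processing, the log2 difference of 225645_at ran from -5.19 to -4.43.

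No probe set of the 9 neighbours passed the test over the 6 arrays. Of their 37 probe sets, 25 passed the filter on low signals, at least 1 for each gene, and the other 12 never exceeded a signal of 14.2. In the limma fit over all 32768 kept probe sets, 0 of the 25 were lower and 0 higher in M5 at an adjusted p under 0.05. Across the whole array that fit called 0.0336% of probe sets lower and 0.0397% higher, so calls were rare everywhere. At an unadjusted p under 0.05, 2 of the 25 were lower (ELF5 and CAT) and 7 higher (CD44 and CD59), against 5.44% and 4.82% of all probe sets. ELF5 was tested only through its higher SW480 arrays, as set out below.

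The median log2 difference of the 25 was -0.12, and that of all kept probe sets was -0.01. M5 lay wholly below SW480 in 4 of the 25 and wholly above in 6, while 15 overlapped. Over the whole array, 7.89% of probe sets were without overlap and lower in M5, and 7.23% without overlap and higher. Several of the 25 read 1 gene, so these counts are not of independent genes. EHF was chosen for its difference, so the gap between EHF and its neighbours was not tested.

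**Figure D2:**
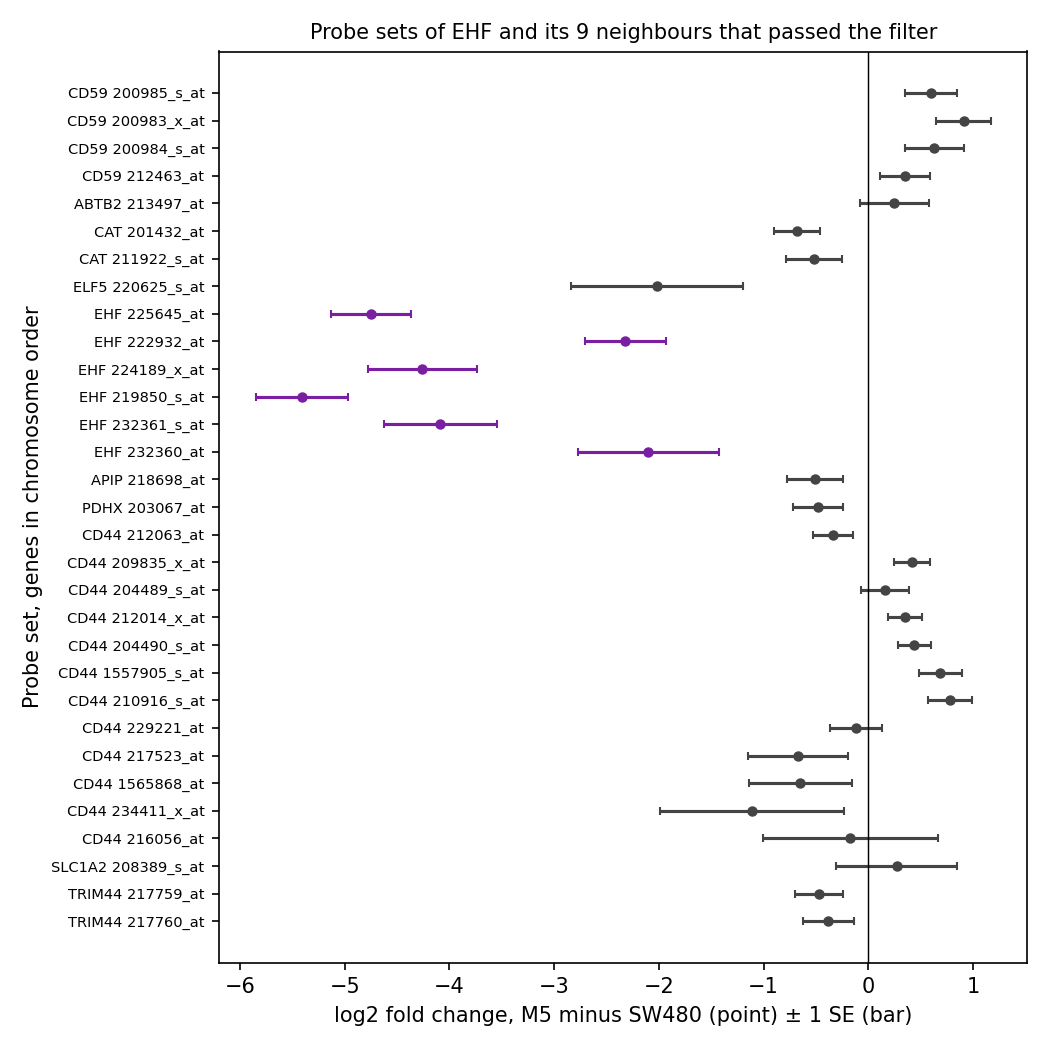
Log2 difference of M5 minus SW480 (points) with 1 SE on either side (bars) for the 31 probe sets of the 10 genes that passed the filter, in chromosome order. EHF probe sets (purple) lie between -5.41 and -2.10, and those of the neighbours (grey) between -2.02 and 0.91.

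ELF5, the ETS gene directly before EHF, came nearest to it but at low signal. Its probe set 220625_s_at read 4.15, 32.1 and 35.7 in SW480 and 2.72, 8.43 and 0.8 in M5. Both groups hold very low values, and SW480 replicate 1 lay below M5 replicate 2, so the groups overlapped. The log2 difference was -2.02 (SE 0.82, 95% interval -3.82 to -0.21, limma adjusted p = 0.452). Between the dimmer arrays the difference was -0.41.

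Without the dimmer pair ELF5 had a log2 difference of -2.99 and a limma adjusted p of 0.0389, in a fit that called 4.21% of all probe sets lower and 3.64% higher. With the other M5 arrays averaged as well the limma adjusted p was 0.0286, where the spread comes from 2 SW480 arrays alone and 0.565% of probe sets were called lower and 0.351% higher. Its M5 signals alone lay under the filter on mean signal, so it was tested only through its higher SW480 arrays, and the stricter filter left it out. Its adjusted p-values are therefore given as a description. The second ELF5 probe set, 220624_s_at, read 5, 5.28 and 2.5 in SW480 and 1.12, 5.68 and 2.43 in M5 and did not pass the filter. Whether ELF5 was above background on any array is unknown, so the data do not settle whether it fell with EHF.

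APIP, the next gene after EHF, encodes an enzyme of methionine salvage. Its probe set 218698_at read 305, 432 and 400 in SW480 and 174, 323 and 322 in M5. The values of M5 replicates 2 and 3 lay above that of SW480 replicate 1. The log2 difference was -0.51 (SE 0.27, 95% interval -1.10 to 0.08, limma adjusted p = 0.551), so a fall beyond -1.10 on the log2 scale lies outside that interval. With M5 replicates 2 and 3 averaged it was -0.66 (limma adjusted p = 0.887), and no interval was computed for that fit.

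PDHX, which shares its start region with APIP, encodes the protein that tethers the E3 enzyme to the core of the pyruvate dehydrogenase complex. Its only probe set, 203067_at, read 173, 205 and 254 in SW480 and 162, 124 and 162 in M5. All M5 values lay below all SW480 values, but by little. The log2 difference was -0.48 (SE 0.24, 95% interval -1.01 to 0.04, limma adjusted p = 0.525). Of 10 other measured genes of that complex and its regulators, 0 passed in either direction in limma. At an unadjusted p under 0.05, 1 was lower and 1 higher, beside 6.12% and 5.43% of all genes.

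CAT, which lies 2 genes before EHF, was lower in M5 without passing the threshold. Probe set 201432_at read 476, 697 and 801 in SW480 and 440, 382 and 380 in M5. The groups did not overlap, though SW480 replicate 1 came close to M5 replicate 1. The log2 difference was -0.68 (SE 0.22, 95% interval -1.16 to -0.21, limma adjusted p = 0.357). The second probe set, 211922_s_at, read 113, 170 and 173 against 82.1, 124 and 110, a log2 difference of -0.52 (SE 0.27, limma adjusted p = 0.550).

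Leaving out arrays changed the call for CAT, and calls were frequent everywhere without the dimmer pair (4.21% of all probe sets lower and 3.64% higher). Without the dimmer pair, 201432_at had a log2 difference of -0.97 and a limma adjusted p of 0.007, and with the other M5 arrays averaged as well the adjusted p was 0.158. Without SW480 replicate 1 alone, CAT passed among genes (log2 difference -0.90, limma adjusted p over genes = 0.0465) and did not pass among probe sets (0.0686). That fit called 0.388% of genes lower and 0.705% higher. Between the dimmer arrays 201432_at differed by -0.11. It differed by -0.39 among the arrays with a high 18S control signal and by -1.07 among those with a low one. For 211922_s_at these differences were -0.75 and -0.56. Of 11 other measured enzymes that handle peroxide or superoxide, 0 passed in either direction in limma. At an unadjusted p under 0.05, 1 was lower and 0 higher, beside 6.12% and 5.43% of all genes.

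**Figure D3:**
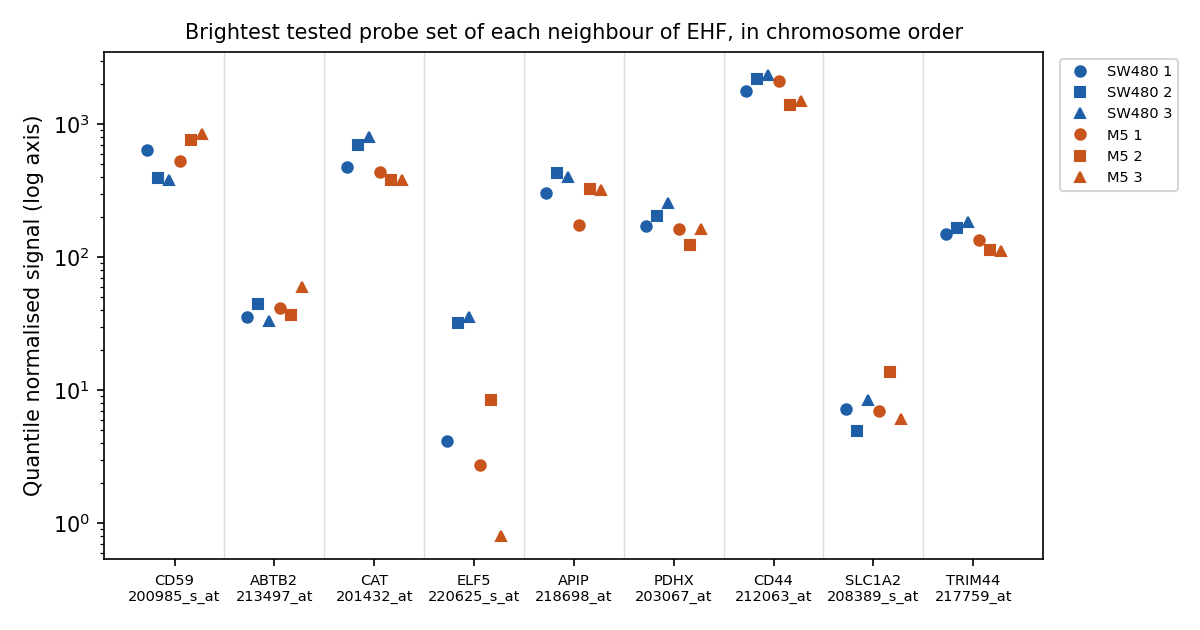
Signals after quantile normalisation, on a log axis, of the brightest tested probe set of each of the 9 neighbours (horizontal axis, chromosome order), with 1 point per array (SW480 blue, M5 orange). Except for ELF5, whose signals run from 0.8 to 35.7, the M5 points lie close to or among the SW480 points.

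CD44 stayed bright in M5. It was read by 13 probe sets, of which 12 were tested and 0 passed in limma. The brightest, 212063_at, read 1770, 2170 and 2360 in SW480 and 2120, 1400 and 1500 in M5, and ranked at or above percentile 98.6 on all 6 arrays. The groups overlapped, since M5 replicate 1 lay within the SW480 range. The log2 difference was -0.34 (SE 0.19, 95% interval -0.75 to 0.07, limma adjusted p = 0.566).

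Other CD44 probe sets lay the other way. Probe set 210916_s_at read 179, 184 and 156 in SW480 and 262, 308 and 325 in M5, a log2 difference of 0.78 (SE 0.21, 95% interval 0.33 to 1.23, limma adjusted p = 0.298). Probe set 1557905_s_at read 330, 320 and 229 against 423, 459 and 524, one of 0.69 (SE 0.21, limma adjusted p = 0.339). M5 lay wholly above SW480 in both.

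The same held with smaller differences for 204490_s_at, 209835_x_at and 212014_x_at, whose log2 differences were 0.44, 0.42 and 0.35. For example, 204490_s_at read 516, 551 and 471 in SW480 and 703, 694 and 691 in M5. Probe set 204489_s_at overlapped (0.16, SE 0.23), with 1330 on M5 replicate 1 and 738 to 882 on the other arrays. Probe set 229221_at overlapped as well (-0.12, SE 0.25).

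The difference between CD44 probe sets was also present within single arrays, where no scaling between arrays enters. The deposited log2 ratio of 210916_s_at to 212063_at was -3.26, -3.32 and -3.75 on the SW480 arrays and -3.01, -2.25 and -2.30 on the M5 arrays. For 204490_s_at it was -1.87, -1.85 and -2.20 against -1.63, -1.04 and -1.17. For 6 probe sets this ratio was higher on every M5 array than on every SW480 array, with mean differences of 0.43 to 0.93. The gap was narrow on the dimmer arrays, at -3.26 against -3.01 for 210916_s_at. The ratios share 212063_at as denominator and were chosen after the values were seen, so they were not tested. The files used here do not say which CD44 transcripts each probe set reads.

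**Figure D4:**
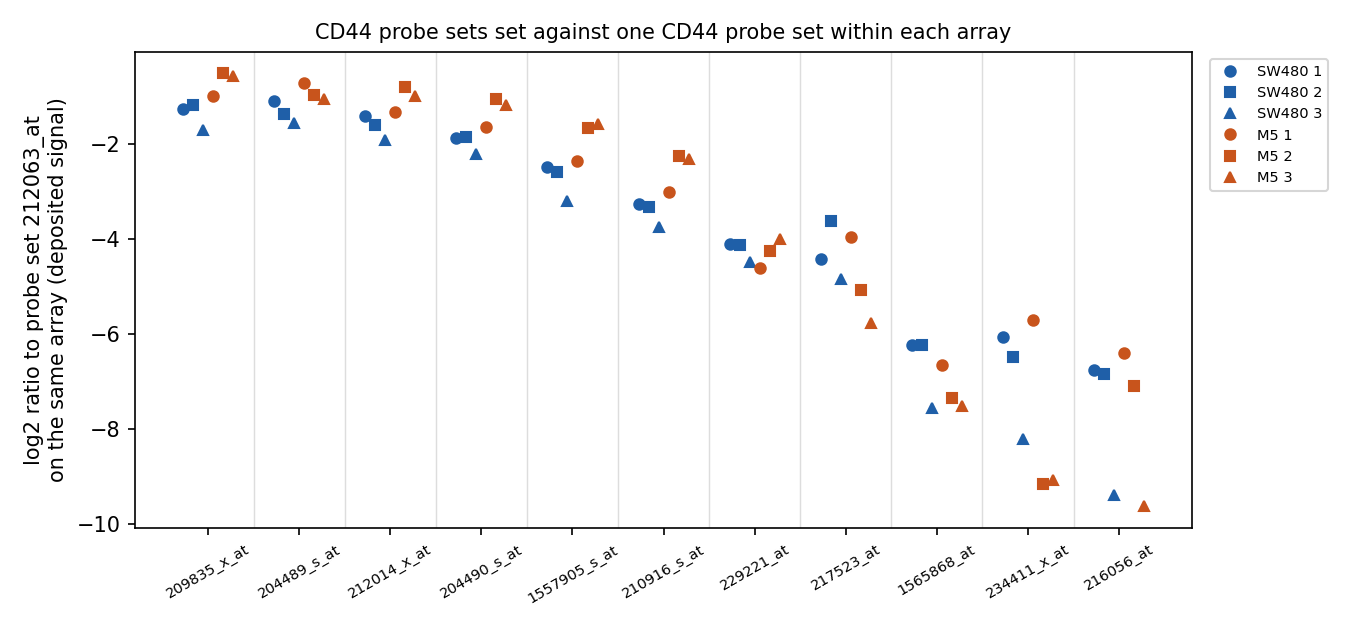
Log2 ratio of 11 CD44 probe sets (horizontal axis) to the CD44 probe set 212063_at on the same array, from deposited signals with 1.7 added, with 1 point per array (SW480 blue, M5 orange). In the 6 leftmost probe sets all M5 points lie above all SW480 points, by 0.43 to 0.93 on average, and in the others they overlap.

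The 4 dimmest tested CD44 probe sets had wide errors. Probe set 217523_at read 71.6, 146 and 74 in SW480 and 129, 46 and 30.9 in M5 (log2 difference -0.67, SE 0.48). Probe sets 1565868_at, 234411_x_at and 216056_at never exceeded 32.7, with log2 differences of -0.65, -1.11 and -0.17 and SEs of 0.49, 0.88 and 0.84. For these the arrays cannot show a moderate difference in either direction.

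Without the dimmer pair, 4 CD44 probe sets passed in limma, in opposite directions. That fit called 4.21% of all probe sets lower and 3.64% higher. Probe sets 1557905_s_at and 210916_s_at were higher (0.86 and 0.91, adjusted p of 0.0324 and 0.0177), and 212063_at and 217523_at were lower (-0.63 and -1.46, adjusted p of 0.0167 and 0.0422). With the other M5 arrays averaged as well, the adjusted p of these 4 lay between 0.172 and 0.272. Of 10 measured partners of CD44 (hyaluronan enzymes, ligands, linkers to actin and splicing factors), 0 passed in limma over all arrays. At an unadjusted p under 0.05, the actin linker EZR was higher (0.66, SE 0.27) and the epithelial splicing factor ESRP1 lower (-0.58, SE 0.24). Their limma adjusted p over genes was 0.397 and 0.4. At that unadjusted threshold, 6.12% of all genes were lower and 5.43% higher.

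CD59, the farthest member on the other side of EHF, leaned towards higher signal in M5. Probe set 200983_x_at read 633, 320 and 339 in SW480 and 642, 823 and 860 in M5, so that the groups just failed to overlap. Its log2 difference was 0.91 (SE 0.26, 95% interval 0.34 to 1.48, limma adjusted p = 0.315). The brightest probe set, 200985_s_at, read 644, 395 and 379 against 531, 757 and 845, with SW480 replicate 1 above M5 replicate 1. It had a log2 difference of 0.60 (SE 0.25, limma adjusted p = 0.454). Probe sets 200984_s_at and 212463_at had log2 differences of 0.63 (SE 0.28) and 0.35 (SE 0.24), and overlapped.

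The difference in CD59 varied with the arrays compared, and the reason was not tested. Among the arrays with a high 18S control signal, 200985_s_at, 200983_x_at and 200984_s_at differed by 0.07, 0.51 and -0.06. Among those with a low one they differed by 1.08, 1.31 and 1.19. Between the dimmer arrays they differed by -0.28, 0.02 and -0.44. Without that pair they passed in limma, with log2 differences of 1.05, 1.35 and 1.18 and adjusted p of 0.00488, 0.00172 and 0.00365. The same fit called 4.21% of all probe sets lower and 3.64% higher. With the other M5 arrays averaged as well, the adjusted p was 0.130, 0.0658 and 0.103. Without SW480 replicate 1 alone, 200983_x_at passed (1.22, limma adjusted p = 0.0292), in a fit that called 0.168% of probe sets lower and 0.363% higher. Of 4 other complement regulators on the cell surface, 0 passed in limma. At an unadjusted p under 0.05, 2 were lower and 1 higher, beside 6.12% and 5.43% of all genes. Among them CD46 and CD55 had log2 differences of -0.67 (SE 0.19) and 0.60 (SE 0.25). CR2, also lower, read 0.967, 0.8 and 16.7 in M5 and was tested only through its higher SW480 arrays.

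TRIM44, at the far end beyond CD44, encodes a tripartite-motif protein. Probe set 217759_at read 150, 167 and 183 in SW480 and 135, 114 and 112 in M5, and 217760_at read 138, 152 and 134 against 129, 95.7 and 101. Both were wholly lower in M5 by small amounts. Their log2 differences were -0.47 (SE 0.23, 95% interval -0.96 to 0.03, limma adjusted p = 0.519) and -0.38 (SE 0.24, limma adjusted p = 0.615).

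ABTB2, an ankyrin-repeat and BTB-domain gene, had 35.5, 44.5 and 33.2 in SW480 and 41.4, 36.5 and 60.1 in M5 in probe set 213497_at. The groups overlapped, and the log2 difference was 0.25 (SE 0.33, 95% interval -0.46 to 0.97, limma adjusted p = 0.835). SLC1A2, a glutamate transporter best known from astrocytes, was near the bottom of the scale in both populations. Its only tested probe set, 208389_s_at, read 7.25, 4.93 and 8.48 in SW480 and 7.02, 13.8 and 6.07 in M5 (log2 difference 0.27, SE 0.58, limma adjusted p = 0.911). Of 5 other measured transporters of its family, and of 6 methionine salvage genes around APIP, 0 passed in limma in either direction. At an unadjusted p under 0.05, 1 transporter was lower and 0 were higher, and 1 salvage gene was lower and 1 higher. The shares over all genes were 6.12% lower and 5.43% higher. The lower transporter, SLC1A7, read 2.17, 3.22 and 5.73 in M5 and was tested only through its higher SW480 arrays.

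A wider stretch was taken as the 20 protein-coding genes before EHF and the 20 after it in RefSeq order. Of these 40 genes, 33 had a tested probe set, and the brightest stood for each. In limma 0 of the 33 were lower and 0 higher, where 0.0632% of all 14243 genes were called lower and 0.0702% higher. At an unadjusted p under 0.05, 4 were lower and 2 higher, beside 6.12% and 5.43% of all genes. The 4 include ELF5, which was tested only through its higher SW480 arrays. The median log2 difference of the 33 was -0.12, beside -0.01 over all genes, and 21 of 33 were below 0. In 7 of the 33 M5 lay wholly below SW480 and in 2 wholly above, where the shares over all genes were 8.36% and 7.74%.

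Within that stretch QSER1, which lies 15 genes before EHF, had the lowest value after ELF5. Its signals were 479, 588 and 612 in SW480 and 450, 192 and 149 in M5, a log2 difference of -1.24 (SE 0.34, limma adjusted p over genes = 0.249). M5 replicate 1 lay near the SW480 arrays and the other M5 arrays well below. QSER1 differed by -0.24 among the arrays with a high 18S control signal and by -1.85 among those with a low one. Without the dimmer pair, QSER1, NAT10, CAT, ELF5 and CD44 passed as lower and CD59 as higher, where 6.29% of all genes were called lower and 5.06% higher. QSER1 was then read by another of its probe sets (log2 difference -0.76), the brightest in that fit. With the other M5 arrays averaged as well, QSER1 (-1.83) and ELF5 passed, where 0.801% of genes were called lower and 0.624% higher.

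**Figure D5:**
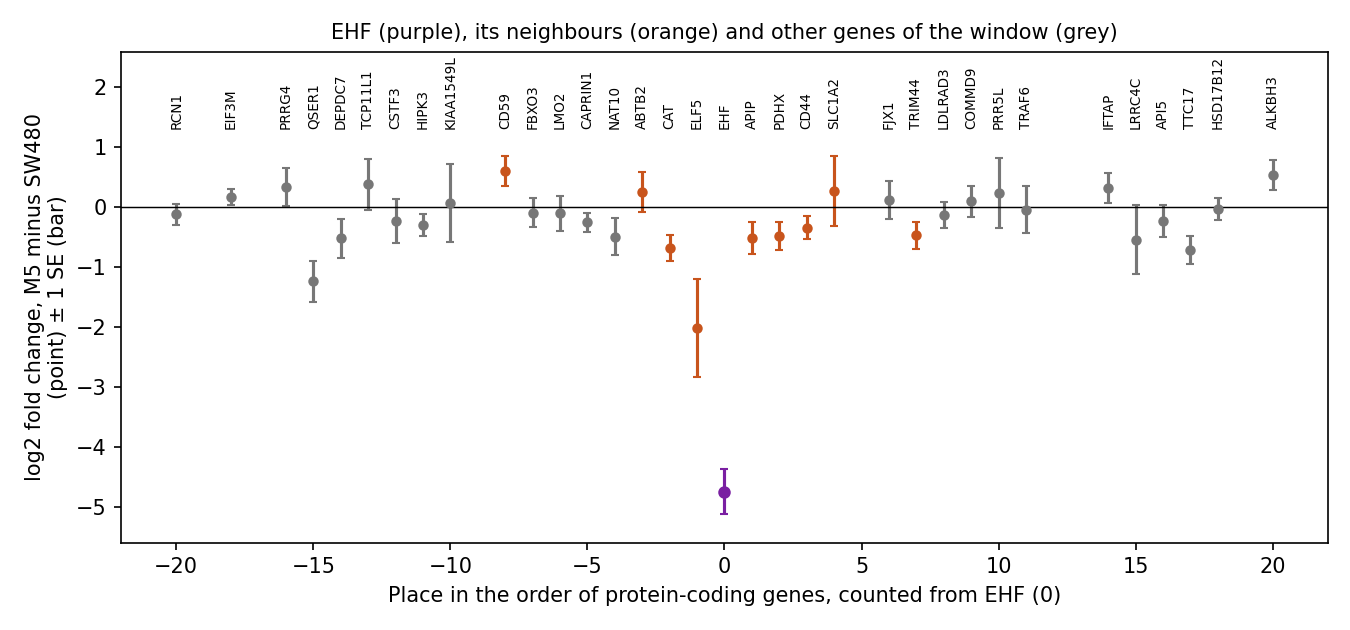
Log2 difference of M5 minus SW480 (points) with 1 SE on either side (bars) for EHF (purple) and 33 measured genes among the 20 on each side of it, placed by their order along the chromosome. EHF lies at -4.75, ELF5 at -2.02, QSER1 at -1.24, and all others between -0.71 and 0.60.

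Among other ETS genes, 23 of 27 were measured besides EHF, and 0 were lower and 0 higher in limma, beside 0.0632% and 0.0702% of all genes. The median log2 difference of the 23 was -0.22. At an unadjusted p under 0.05, 2 were lower (ETV1 and ELF5) and 3 higher (ELF3, ELF4 and ETS1), beside 6.12% and 5.43% of all genes. Of these, ELF5 was tested only through its higher SW480 arrays. ELF3, the other close relative of EHF, read 164, 121 and 132 in SW480 and 270, 436 and 478 in M5. Its groups did not overlap, in the direction opposite to EHF (log2 difference 1.46, SE 0.26, limma adjusted p over genes = 0.0681). ELF3 passed without SW480 replicate 1 (adjusted p over genes 0.0253) and without M5 replicate 1 (0.0125) in limma, where the first fit called 0.705% of all genes higher and the second 0.717% higher and 1.05% lower. ETS1 passed without SW480 replicate 1 (0.0209) and read 112, 19.4 and 41.7 in SW480 against 112, 176 and 168 in M5.

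The 5 genes whose signals over the 6 arrays were most like those of EHF did not include a neighbour. Likeness was the mean absolute difference between log2 signals centred on each gene's own mean, where a small value means a similar course. It depends largely on the size of the drop in M5, for which EHF was chosen. The ranking is therefore a description and no test. Among the 5 nearest were HEPH, a copper-dependent iron oxidase gene (0.90), PKIB, a protein kinase A inhibitor gene (0.92), SEMA3A, a secreted guidance factor gene (0.93), and SPARC, a matrix glycoprotein gene (0.99). HEPH read 14.4, 63.1 and 39.5 in SW480 and 1.97, 5.58 and 1.77 in M5. PKIB read 1160, 1650 and 1600 against 116, 265 and 227. Of 14242 genes ranked in this way, ELF5 stood at 30 (1.4) and CAT at 1411 (2.03). APIP, PDHX, TRIM44 and CD44 followed at 2250, 2449, 2562 and 3481, and ABTB2, SLC1A2 and CD59 stood at 10163, 10296 and 12519.

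The cell type shown by the labels was checked on markers. EPCAM, an epithelial adhesion gene, read 2560, 2180 and 2450 in SW480 and 2920, 2410 and 2240 in M5, and CDH1 read 331, 262 and 390 against 289, 374 and 345. Of 12 markers of colorectal epithelium 9 were tested, and the intestinal genes CDX1, CDX2 and CDH17 did not pass the filter on low signals. Summed over those 9, signal ran from 9120 to 13100 in SW480 and from 11400 to 12300 in M5. Most of each sum came from EPCAM, KRT8, KRT18 and KRT19 together. KRT19, an epithelial keratin, had a log2 difference of 0.75 (SE 0.31, unadjusted p = 0.0345, limma adjusted p over genes = 0.399), with 2960, 1430 and 955 in SW480 and 2660, 2650 and 2750 in M5. At low signal KRT20 lay wholly lower in M5 (-0.49, SE 0.34), CEACAM5 wholly higher (0.98, SE 0.54), and LGALS4 overlapped (-0.95, SE 0.73). Markers of fibroblasts, endothelium, leukocytes and hepatocytes gave 5 of 6, 1 of 4, 2 of 5 and 3 of 6 tested genes, and 0 passed in limma. At an unadjusted p under 0.05, COL3A1 was lower and LYZ and TTR were higher in M5, beside 6.12% and 5.43% of all genes. TTR read 5.17, 1.67 and 1.43 in SW480 and 196, 73.1 and 5.68 in M5. It was tested only through its higher M5 arrays, so its p-value is a description. Summed leukocyte markers ran from 6.27 to 86.9 in SW480 and from 66 to 175 in M5, and hepatocyte markers from 67.4 to 262 and from 72.3 to 328. Summed fibroblast markers ran from 209 to 341 in SW480 and from 149 to 201 in M5, without overlap. The only tested endothelial marker, PECAM1, ran from 9.05 to 23.6 and from 6.97 to 10. Their part in the results was not tested.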

How the data were processed

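The deposited table gives the authors' linear probe set intensity for each array. GCOS 1.4 is named per the submitters' processing notes. How it was set and any scaling target are not given in the sources read. Trimmed means of the arrays differed up to 4.13 times, so arrays were quantile normalised after 62 control probe sets were left out. The pseudocount of 1.7 added before taking log2 is the 20th percentile of deposited values. The dimmest 40% of probe sets by mean log2 signal were left out. M5 and SW480 were compared over all 6 arrays with limma 3.58.1 in R 4.3.3 (lmFit and eBayes with an intensity trend, two-sided, Benjamini-Hochberg adjustment over 32768 probe sets, or over 14243 genes by their brightest probe set, threshold 0.05). The number of arrays limits the precision, and p-values measure the spread between these arrays.

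The platform annotation of 2016 gives 41091 probe sets 1 symbol, 1801 several and 11721 none. RefSeq matched 41037 of the 41091 by gene ID and changed 0 symbols. The members and gene lists were chosen with earlier results of these data known. Genes named besides the members were those past the threshold in some fit, the 5 most like EHF, 1 of which is not reported here, and epithelial markers. A few others with an unadjusted p under 0.05, and QSER1, were named after their values were seen. Other scalings, pseudocounts (0.425 and 6.8), filters, variance models, blocks and sets of arrays were tried, and the scripts were tested on simulated data. Figures were drawn with matplotlib 3.10.9.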

Additional observations from a re-analysis of the deposited data

How the results depend on the processing

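The 6-array limma fit called 0 neighbour probe sets, 0 genes of the 40-gene stretch and 0 other ETS genes in either direction. Of the 18 alternatives, the one that drops the dimmer pair and averages the other M5 arrays was chosen after the data were seen. Without the dimmer pair, 4 neighbour probe sets were lower and 5 higher, 5 genes of the stretch lower and 1 higher, and 2 ETS genes lower and 3 higher. That fit called 1378 probe sets lower and 1194 higher over the whole array. The lower counts of neighbours, stretch and ETS genes include ELF5, which was tested only through its higher SW480 arrays. With the other M5 arrays averaged as well (185 and 115 over the whole array), 1 neighbour probe set, 2 genes of the stretch and 1 ETS gene were lower and 2 ETS genes higher. No filter gave 1 ETS gene higher, ELF3. Leaving out 1 array in turn gave 0 to 1 neighbour probe sets higher, 0 to 1 genes of the stretch lower and 0 to 2 ETS genes higher, with 0 in the other directions. Over the whole array 55 probe sets were lower and 119 higher without SW480 replicate 1, and 212 and 165 without M5 replicate 1. The cause was not tested.

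By deviations from group means the replicate numbers gave no clear pairing, with r of 0.11, 0.02 and 0.07 for numbers 1, 2 and 3. Over bright probe sets, however, SW480 replicate 1 correlated more with M5 replicate 1 (r = 0.952) than with SW480 replicates 2 and 3 (0.909 and 0.913). Over all kept probe sets these values were 0.895 against 0.89 and 0.899. The reason was not tested. With the replicate block, 0 neighbour probe sets were lower and 0 higher, while 18 probe sets over the whole array were lower and 16 higher. Signs turned only for probe sets that passed in none of these fits. CD44 216056_at had 0.14 with M5 replicates 2 and 3 averaged, 0.37 with the 18S control as a block and -0.82 to 0.69 with 1 array left out. CD44 204489_s_at had -0.05 without the dimmer pair, averaged or not, and -0.11 to 0.31 with 1 array left out, and SLC1A2 208389_s_at had -0.04 to 0.46. With the smaller and the larger pseudocount, EHF 219850_s_at had -6.55 and -3.81. Without detection calls, low signals set no firm fold.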
